A study of Mus musculus with 4 samples.

Results

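The genes described here are 43 lysosomal genes, chosen by name as soluble lysosomal hydrolases, proteins of the lysosomal membrane and the transcription factor Tfeb. All 43 were found among the 54078 features of the deposited table, and all 43 were among the 15414 genes with a mean of at least 0.5 FPKM (fragments scaled by gene length and library total) that were tested. RNA-sequencing covered 4 libraries of adult male mouse kidney at day 3 after bilateral ischemia-reperfusion (I/R), in which both renal pedicles were clamped for 30 min. WT libraries came from Apela flox/flox littermates without Cre, and Apela Ksp KO libraries from Apela flox/flox mice that carried Cre under the Ksp-cadherin promoter, which is active in renal tubular epithelial cells, so that other kidney cells keep the gene. Apela encodes ELABELA, a peptide ligand of the apelin receptor APJ. The comparison asks how injured kidneys differ when tubules lack this peptide, and every library is from injured kidney. Each group has 2 libraries, named pools here because each holds RNA of 3 mice. The labels give the strain as C57BL/6 x 129S4/SvJae, whereas the study's methods give a C57BL/6 background. The series' design text names adipose tissue as the source, while title and labels name kidney. Kidney markers were high (Umod, made by the thick ascending limb, at 788 to 1133 FPKM), whereas of 8 adipose markers Adipoq was at 0 reads in 3 pools and 6 in KO pool 2, Ucp1 at 0 reads in all 4, and Lep, Cidea and Retn at 0 to 2 reads. Plin1, a lipid droplet protein of adipocytes, had 4, 1, 27 and 9 reads in WT1, WT2, KO1 and KO2. The other two were present: Fabp4, a fatty acid carrier that endothelial cells also make, at 10.2, 13.03, 14.6 and 11.7 FPKM, and Cidec, also of lipid droplets, at 1.37, 0.282, 7.92 and 2.79 FPKM. Cidec was higher in both KO pools (log2 fold change 2.12, limma, unadjusted p = 0.0220, adjusted p = 0.785), and its part in the values of the lysosomal genes was not tested.

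Lysosomes are acidic organelles in which hydrolases break down proteins, sugar chains, sulfated polysaccharides and lipids delivered by endocytosis and autophagy. Most soluble hydrolases are tagged with mannose 6-phosphate in the Golgi and carried by receptors to the lysosome, while heavily glycosylated membrane proteins such as LAMP1 and LAMP2 line its limiting membrane. Proximal tubule cells take up filtered protein and hold many lysosomes, and macrophages are rich in cathepsins. TFEB, with its relatives TFE3 and MITF, binds a palindromic E-box called the CLEAR element near the start of many lysosomal genes.

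To show this element in the genes studied, promoters were searched for it. RefSeq promoter windows on GRCm38.p6, from 250 bases before to 50 after a start, matched 38 of the 43 genes with 44 windows. No window was matched for Ctsh, Ctsb, Npc1, Asah1 or Aga. The E-box CACGTG, the core of the element, reads the same on both strands and was in 14 of the 44 windows (31.8%), against 7.15% of the 32851 windows in the table and 9.73% of the 13212 windows of genes tested here. TCACGTGA, a longer palindrome that contains it, was in 5 windows (11.4%) against 0.974% and 1.79%. The median GC content was 56.8% in the lysosomal windows, 52.7% in all windows and 60.3% in those of genes tested here. Stretches of 30 bases with a TCACGTGA match, in capitals, are shown for the 5 genes that hold TCACGTGA, from Cln3 (chr7:126583340-126583369, minus strand), Ctsa (chr2:164833743-164833772, plus strand), Ctsd (chr7:142387908-142387937, minus strand), Gla (chrX:134601215-134601244, minus strand) and Mcoln1 (chr8:3500462-3500491, plus strand), each written 5′ to 3′:
Cln3: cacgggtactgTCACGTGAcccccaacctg
Ctsa: gaacaatgagcaaactgTCACGTGAtgcag
Ctsd: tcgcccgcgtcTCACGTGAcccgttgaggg
Gla: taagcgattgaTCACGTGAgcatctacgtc
Mcoln1: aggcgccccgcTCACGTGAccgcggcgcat

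The matches shown began 122 bases before the RefSeq start in Cln3, 13 in Ctsa, 99 in Ctsd, 228 in Gla and 46 in Mcoln1. Lamp1, a main lysosomal membrane protein, had 4 copies of CACGTG, more than any other window of these genes. They began 61, 45, 28 and 15 bases before its start, and are in capitals in the 100 bases that precede it (chr8:13159061-13159160, plus strand). Scarb2, the gene with the clearest separation of WT and KO pools below, had none in its window, and the 100 bases before its start (chr5:92505658-92505757, minus strand) are shown beside it:
Lamp1: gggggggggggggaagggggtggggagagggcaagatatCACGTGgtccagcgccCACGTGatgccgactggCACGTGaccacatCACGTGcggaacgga
Scarb2: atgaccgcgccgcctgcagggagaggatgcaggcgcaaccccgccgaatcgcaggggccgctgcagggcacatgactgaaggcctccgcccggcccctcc

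By GENCODE M21, the stretches of Cln3, Ctsa, Ctsd and Mcoln1 lie at least partly in annotated exons of these genes, since other transcripts start further upstream, and that of Gla lies in an exon of Hnrnph2 on the opposite strand. The stretch of Scarb2 lies in an exon of a transcript with a retained intron, and that of Lamp1 in no exon. A match is a description of the letters only, and an absent match says that these letters are not in this window. The other genes with CACGTG were Arsa, Ctsf, Ctsl, Gaa, Glb1, Lgmn, Naglu and Sgsh. Tfeb and Psap had none.

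Reads that fell on genes numbered 16045724 to 16927742 per pool, with 5.20% to 6.45% on mitochondrial genes. Apela itself was at 5.27 and 4.57 FPKM in the WT pools and 0.536 and 0.245 FPKM in the KO pools (85, 79, 9 and 4 reads), a log2 fold change of -2.62 (SE 0.22, limma, unadjusted p = 0.000132, adjusted p = 0.466), in the direction of the labels. WT pool 2 stood apart from the other 3 in macrophage markers, of which 18 had a summed FPKM of 249.8, 591, 304 and 276 in WT1, WT2, KO1 and KO2. The summed FPKM of 12 proximal tubule markers was low in WT pool 2 and KO pool 1 alike (12160, 6793, 8024 and 12059), each being the lowest pool for 6 of the 12, and most of that sum was Kap. By limma, 0 of 15414 genes (0.0%) had an adjusted p under 0.05, while 974 (6.32%) had an unadjusted p under 0.05. With voom weights on the reads recovered from the FPKM, these were 0 and 948. Thus none of the lysosomal genes passed the threshold, and their adjusted p-values ran from 0.690 to 0.997. The study did report differentially expressed genes between injured WT and KO kidneys at this threshold. They came from its own analysis, with a test that its methods do not name.

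The lysosomal genes together were strongly expressed in injured kidneys of both groups. Their summed FPKM was 3867 in WT pool 1, 3814 in WT pool 2, 3601 in KO pool 1 and 4155 in KO pool 2. The KO pools lay on both sides of the WT pools, with means of 3840 ± 36.9 FPKM in WT and 3878 ± 392 in KO (SD, n = 2), a ratio of 1.01. They took 1.26%, 1.34%, 1.17% and 1.30% of all reads on genes in the same order of pools. Every one was detected in every pool, the lowest count being 115 reads of Ctsk in WT pool 1.

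Levels per gene length spanned 349-fold, from 2.82 FPKM for Gla (alpha-galactosidase A, which removes terminal galactose from globotriaosylceramide) to 983 FPKM for Psap (prosaposin, the precursor of the saposins that help sphingolipid hydrolases), each a mean of the 4 pools. Psap ranked 18 among all features. After it came Lgmn (legumain, an asparaginyl endopeptidase) at 517, Ctsd (cathepsin D, an aspartic protease) at 484 and Lamp1 at 454 FPKM. These 4 genes alone made up 61.0% to 65.8% of the summed FPKM of the 43 genes. With Ctsb (182 FPKM), Ctsz (130 FPKM) and Neu1 (127 FPKM), 7 genes were at 100 FPKM or more, 25 were between 10 and 100, and 11 were under 10. In the order of mean levels, 35 of 42 neighbouring genes had overlapping ranges of pools, so that only the coarse order is set by these data.

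**Figure D1:**
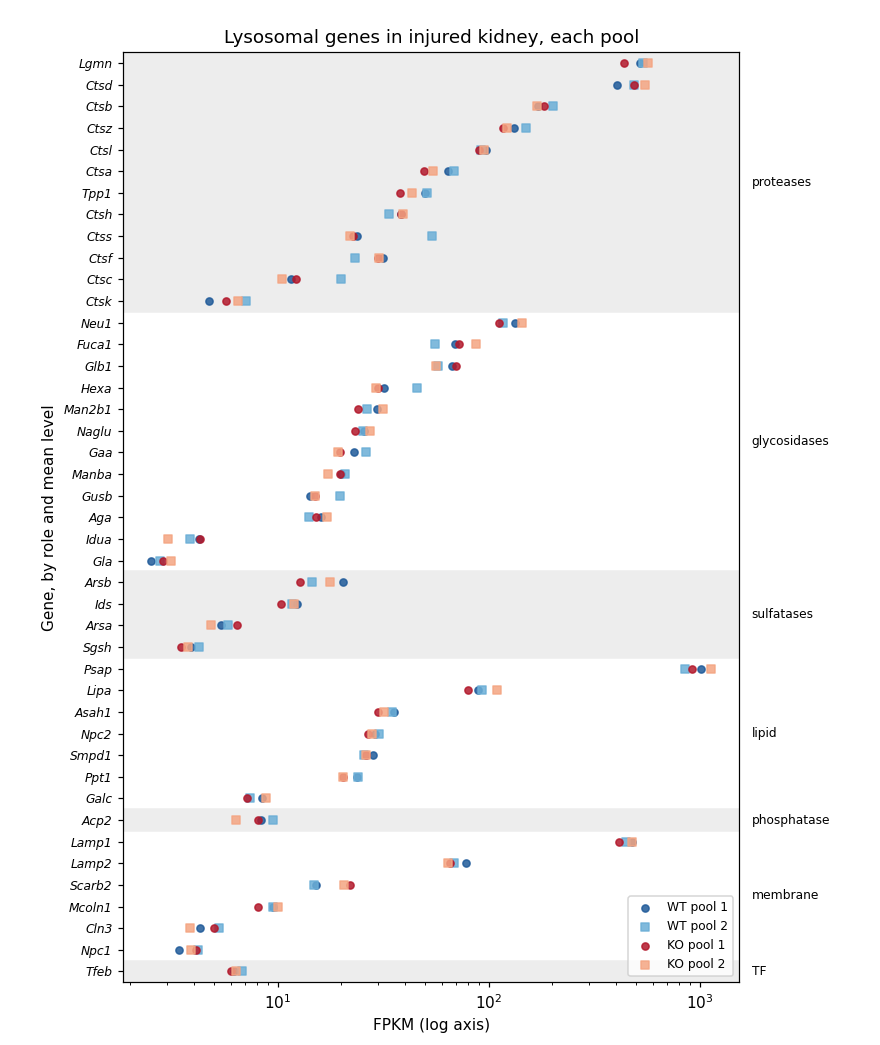
FPKM of the 43 lysosomal genes (log axis) in each of the 4 pools, ordered by role and mean level, with WT pools in blue and KO pools in red. Psap, Lgmn, Ctsd and Lamp1 lie furthest to the right, and the differences between pools of one gene are small beside the 349-fold range between genes.

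WT and KO differed little for most of these genes. On the log2(FPKM + 0.5) scale, which understates differences of low genes, the log2 fold changes of KO against WT ran from -0.67 to 0.49. They were above 0 for 14 genes and below 0 for 29, with a median of -0.07 against 0.0071 for all genes tested. An unadjusted p under 0.05 was found for 3 of 43 genes (6.98%, against 6.32% of all genes tested), namely Scarb2 with the higher level in KO (3.29% of all genes tested) and Ctsa and Gaa with the lower (3.03%). Without WT pool 2, Scarb2 alone remained. Pools of WT and KO did not overlap for 17 genes (39.5%, against 37.8% of all genes tested). Of these 17, 4 had the KO pools as the higher pair (9.30%, against 19.7%) and 13 as the lower pair (30.2%, against 18.1%). With 1 pool left out, 3 pools separate more often by construction. Without WT pool 2, 8 were above (18.6%, against 34.3%) and 18 below (41.9%, against 32.0%), and without WT pool 1, 8 (18.6%, against 37.7%) and 20 (46.5%, against 35.9%). Without KO pool 2 these were 7 (16.3%, against 35.1%) and 25 (58.1%, against 32.3%). Without KO pool 1, 15 were above, at the share of all genes tested (34.9%, against 34.8%), and 19 below (44.2%, against 32.9%). With 2 pools against 2, an exact two-sided permutation test of a single gene cannot give a p under 0.333. In whole kidney, fewer cells of a type and less RNA per cell cannot be told apart.

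Markers of tubular injury and of proximal tubule cells were read in the same pools, and none passed the adjusted threshold. Of 8 injury markers, with summed FPKM of 8299, 9367, 10500 and 8102 in WT1, WT2, KO1 and KO2 and none at 0 in any pool, the pools did not overlap for 5 (62.5%, against 37.8% of all genes tested), of which 4 had the higher level in KO (4 of 8 markers, against 19.7% of all genes tested). Lcn2, the secreted iron-siderophore carrier NGAL, was at 132.6 and 95.2 FPKM in WT and at 249 and 273 FPKM in KO (log2 fold change 1.21, limma, unadjusted p = 0.00299, adjusted p = 0.613). Krt20, a keratin of injured tubules, was at 35.6 and 36.8 FPKM in WT and at 60.0 and 61.0 FPKM in KO (0.73, limma, unadjusted p = 0.00162, adjusted p = 0.545). Vcam1, an adhesion molecule, was lower in KO (14.6, 31.0, 10.5 and 2.59 FPKM, log2 fold change -1.91, limma, unadjusted p = 0.0459, adjusted p = 0.785). Havcr1, the injury molecule KIM-1 of proximal tubule cells, was at 210.4, 393, 249 and 105.4 FPKM in WT1, WT2, KO1 and KO2 (-0.83, limma, unadjusted p = 0.180), and Clu, the secreted chaperone clusterin, at 667, 785, 728 and 534 FPKM (-0.21), and both overlapped. Of the 12 proximal tubule markers, none at 0 in any pool, the pools did not overlap for 7 (58.3%, against 37.8%), with 2 higher in KO (16.7%, against 19.7%) and 5 lower (41.7%, against 18.1%), and the median log2 fold change was -0.12. Lrp2, the endocytic receptor megalin, was at 99.9 and 91.0 FPKM in WT and at 70.4 and 76.3 FPKM in KO (-0.38, limma, unadjusted p = 0.0390, adjusted p = 0.785). The glucose transporter gene Slc5a2 (114, 95.3, 56.9 and 77.1 FPKM, limma, unadjusted p = 0.0276) and the phosphate transporter gene Slc34a1 (898, 689, 365 and 609 FPKM, limma, unadjusted p = 0.0829) were also lower in both KO pools. The 2 markers that were higher in both KO pools were the anion transporter gene Slc22a6 (233, 141, 236 and 383 FPKM, log2 fold change 0.73, limma, unadjusted p = 0.105) and the dicarboxylate transporter gene Slc13a3 (203, 154, 217 and 269 FPKM, 0.45, limma, unadjusted p = 0.0994). The part of these markers in the counts and values of the lysosomal genes was not tested.

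The intervals bound how large a difference these pools leave room for. The 95% interval of the fold change lay within a 2-fold difference in either direction for 41 of 43 genes (95.3%), against 79.5% of all genes tested and 88.0% of the 10082 genes with mean levels in the same range. The exceptions were Ctsc and Ctss. The highest pool was less than 1.5-fold above the lowest for 37 genes, with a median ratio of 1.28, the same as in genes of the same range of levels.

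**Figure D2:**
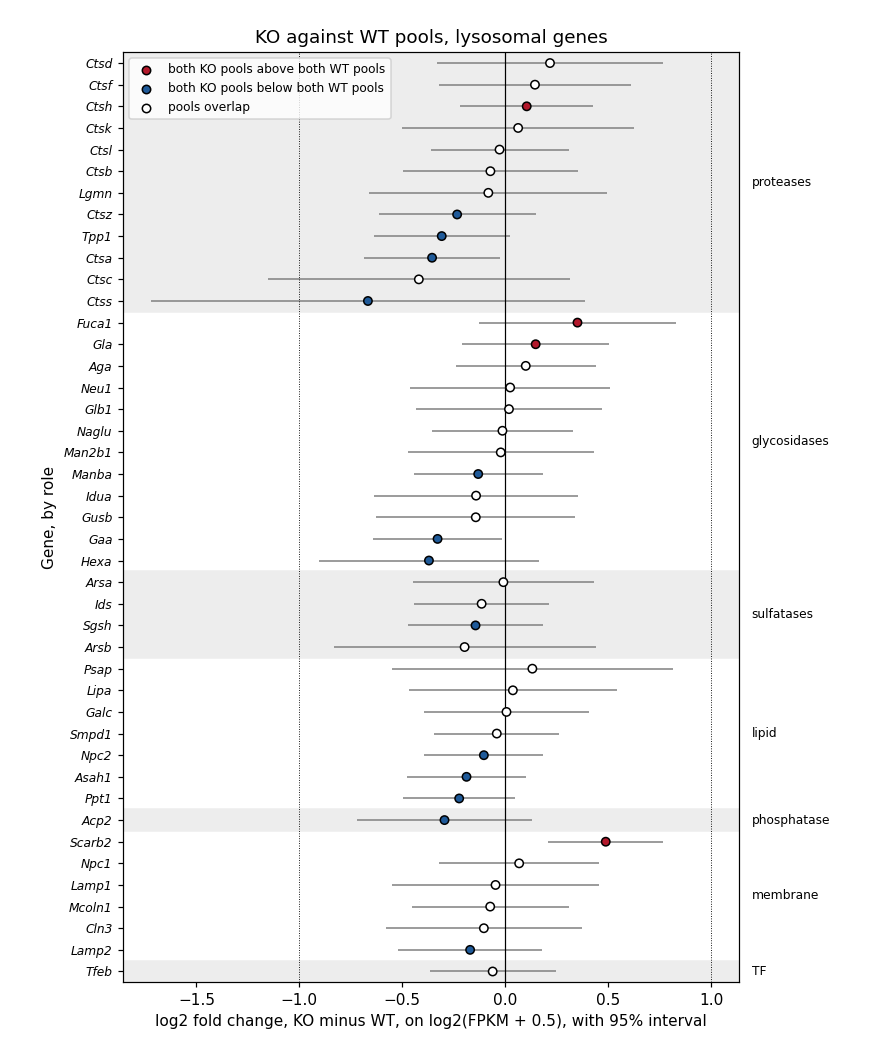
Log2 fold change of KO against WT with its 95% interval for each lysosomal gene, by role, from limma on log2(FPKM + 0.5), with dotted lines at 2-fold. The points run from -0.67 (Ctss) to 0.49 (Scarb2), filled points mark the 17 genes whose WT and KO pools do not overlap, and only the intervals of Ctss and Ctsc cross a dotted line.

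Among the 12 proteases, which include cathepsins of several catalytic types, the median log2 fold change was -0.08. Ctsa encodes cathepsin A, the protective protein that also stabilizes beta-galactosidase and neuraminidase 1 (chr2:164832873-164841032, plus strand). Its level was 64.5 and 68.6 FPKM in WT and 49.5 and 54.4 FPKM in KO. Both KO pools lay below both WT pools. The log2 fold change was -0.36 (SE 0.12, limma, unadjusted p = 0.0390, adjusted p = 0.785), and it was -0.31 with an unadjusted p of 0.117 without WT pool 2. The 2 enzymes that cathepsin A holds in a complex did not show this separation: Neu1 was at 134, 117, 112 and 144 FPKM in WT1, WT2, KO1 and KO2, and Glb1 at 67.0, 57.4, 70.1 and 56.2. The ratio of Ctsa to Neu1, both per gene length, was 0.483 and 0.587 in WT and 0.441 and 0.378 in KO, so the KO pools were the lower ones, whereas the ratio of Ctsa to Glb1 overlapped. Of the exon bases of Ctsa, 17.4% are shared with genes on the opposite strand (Neurl2 and Pltp), and the library protocol names no strand marking. Pltp was low in all pools (2.26, 6.10, 2.73 and 1.90 FPKM). Over 10% of exon bases were shared with other gene models in 9 of the 43 genes. Besides Ctsa these were Arsb (39.9%), Ctsd (34.4%), Ctsl (26.8%), Sgsh (21.6%), Arsa (18.8%), Ctsb (12.8%), Hexa (12.8%) and Acp2 (12.6%). The part of shared bases in the values of these genes was not tested.

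Tpp1, a tripeptidyl peptidase, was at 49.9 and 51.1 FPKM in WT and at 38.1 and 43.4 FPKM in KO (log2 fold change -0.31, unadjusted p = 0.0609 by limma). Ctsz, a carboxypeptidase, was at 132, 150.1, 117 and 122 FPKM in WT1, WT2, KO1 and KO2 (log2 fold change -0.23, from -0.14 without WT pool 2 to -0.33 without WT pool 1). In both genes the KO pools were the lower ones. Ctsh, an aminopeptidase, was at 38.32, 33.8, 38.35 and 39.1 FPKM, so that its KO pools were above the WT pools by a margin of less than 1% at the nearest pair.

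The most abundant proteases did not separate the groups. Lgmn was at 521 and 538 FPKM in WT and at 440.2 and 567 FPKM in KO, with the KO pools outside the WT range on both sides (log2 fold change -0.08, SE 0.22, unadjusted p = 0.724, adjusted p = 0.956 by limma). Ctsd was at 405 and 490.4 FPKM in WT and at 488 and 550.4 FPKM in KO (log2 fold change 0.22, SE 0.21, unadjusted p = 0.350, adjusted p = 0.862 by limma), and its log2 fold change was 0.35 without WT pool 2 and 0.080 without WT pool 1. Its pools overlapped narrowly, and 34.4% of its exon bases are shared with another gene model on the same strand. Ctsb (172, 201, 184 and 170.3 FPKM in WT1, WT2, KO1 and KO2) and Ctsl (97.3, 91.7, 90.1 and 95.2 FPKM), both cysteine endopeptidases, overlapped between groups. So did Ctsf (31.6, 23.3, 29.9 and 30.2 FPKM) and Ctsk (4.73, 7.07, 5.69 and 6.48 FPKM), the latter a collagen-degrading cathepsin best known from osteoclasts.

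Ctss and Ctsc had the most negative log2 fold changes of the 43 genes, and both rested on 1 library. Ctss, the cysteine protease that trims the invariant chain of MHC class II in antigen-presenting cells, was at 23.7 FPKM in WT pool 1, 54.1 in WT pool 2, 22.8 in KO pool 1 and 22.0 in KO pool 2. WT pool 2 was the single high pool and WT pool 1 was close to the KO pools. The log2 fold change of -0.67 (SE 0.40, limma, unadjusted p = 0.160, adjusted p = 0.799) was -0.08 without WT pool 2 and -1.25 without WT pool 1. Ctsc, which activates serine proteases of granulocytes and other immune cells, was at 11.6, 20.0, 12.2 and 10.5 FPKM in WT1, WT2, KO1 and KO2, and its groups overlapped. Its log2 fold change of -0.42 (SE 0.28, limma, unadjusted p = 0.196, adjusted p = 0.816) was -0.04 without WT pool 2 and -0.80 without WT pool 1.

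**Figure D3:**
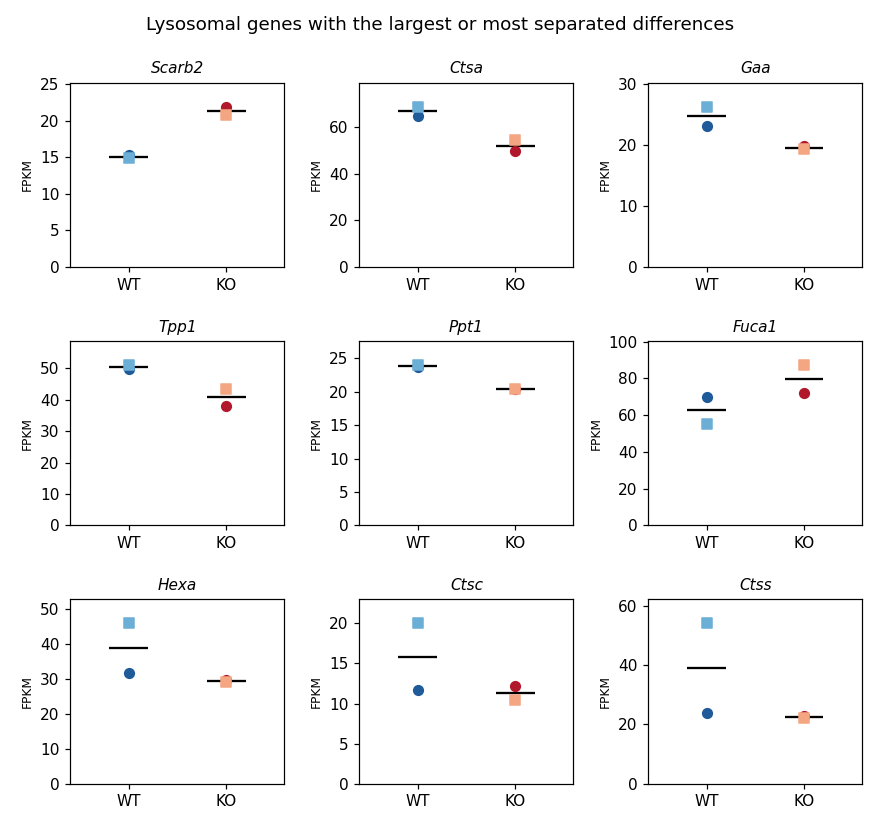
FPKM in each pool (circles for pool 1, squares for pool 2) and group means (lines) of 9 lysosomal genes, with axes from 0. Scarb2 and Fuca1 lie higher in both KO pools, Ctsa, Gaa, Tpp1 and Ppt1 lie lower in both, and in Hexa, Ctsc and Ctss only WT pool 2 stands away from the other 3 pools.

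The 12 glycosidases had a median log2 fold change of -0.02. Gaa, the acid alpha-glucosidase that degrades glycogen (chr11:119267887-119285454, plus strand), was at 23.1 and 26.2 FPKM in WT and at 19.8 and 19.3 FPKM in KO. Both KO pools lay below both WT pools. Its log2 fold change was -0.33 (SE 0.12, limma, unadjusted p = 0.0434, adjusted p = 0.785), and -0.24 with an unadjusted p of 0.152 without WT pool 2. Hexa, the alpha subunit of beta-hexosaminidase A, was at 31.8, 46.0, 29.8 and 29.2 FPKM in WT1, WT2, KO1 and KO2. Its KO pools were the lower ones, but only WT pool 2 was far from the rest. The log2 fold change of -0.37 (SE 0.20, limma, unadjusted p = 0.132, adjusted p = 0.798) was -0.11 without WT pool 2 and -0.63 without WT pool 1.

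Fuca1, the lysosomal alpha-fucosidase, was at 69.6 and 55.4 FPKM in WT and at 72.1 and 87.3 FPKM in KO (log2 fold change 0.35, SE 0.18, limma, unadjusted p = 0.116, adjusted p = 0.798). The pools did not overlap, though the nearest pair was close, and the log2 fold change was 0.19 without WT pool 2 and 0.51 without WT pool 1. Gla was at 2.52 and 2.78 FPKM in WT and 2.86 and 3.11 FPKM in KO, again without overlap, on a low level. Manba, the beta-mannosidase, was at 19.96 and 20.8 FPKM in WT and 19.7 and 17.4 FPKM in KO, the KO pools being the lower ones.

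The remaining glycosidases overlapped between groups. Gusb (beta-glucuronidase) was at 14.2, 19.7, 15.10 and 15.11 FPKM in WT1, WT2, KO1 and KO2, with WT pool 2 as the single high one. Man2b1 (alpha-mannosidase), Naglu (alpha-N-acetylglucosaminidase, of heparan sulfate breakdown), Aga (aspartylglucosaminidase, which splits the bond of sugar to asparagine) and Idua (alpha-L-iduronidase) had log2 fold changes of -0.02, -0.01, 0.10 and -0.14. That of Aga was 0.0085 without WT pool 2 and 0.19 without WT pool 1. Glb1 and Neu1 had log2 fold changes of 0.02 each, and both were negative with quantile normalization (-0.07 and -0.09).

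The 4 sulfatases, which remove sulfate groups from glycosaminoglycans or sulfatide, had a median log2 fold change of -0.13. Arsb was at 20.5, 14.6, 12.7 and 17.7 FPKM in WT1, WT2, KO1 and KO2, and thus differed more within each group than between the group means. Ids was at 12.4, 11.7, 10.3 and 11.9 FPKM and Arsa at 5.38, 5.81, 6.38 and 4.82 FPKM, and both overlapped. In Sgsh, the heparan N-sulfatase, the KO pools (3.48 and 3.77 FPKM) were below the WT pools (3.89 and 4.23 FPKM). Acp2, the lysosomal acid phosphatase, was at 8.34 and 9.52 FPKM in WT and at 8.09 and 6.34 FPKM in KO (log2 fold change -0.30, unadjusted p = 0.132 by limma), without overlap. Its log2 fold change was -0.13 without KO pool 2 and -0.46 without KO pool 1.

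Among the 7 lipid hydrolases and lipid-binding proteins the median log2 fold change was -0.04. Psap was at 1020 and 854 FPKM in WT and at 920.0 and 1136 FPKM in KO. Its groups overlapped in part, with a log2 fold change of 0.13 (SE 0.26, limma, unadjusted p = 0.635, adjusted p = 0.939) that was -0.07 with quantile normalization. Ppt1, palmitoyl-protein thioesterase 1, which removes palmitate from proteins, was at 23.7 and 24.0 FPKM in WT and at 20.34 and 20.35 FPKM in KO. The pools of each group were nearly equal and the groups were apart, with a log2 fold change of -0.22 (SE 0.10, limma, unadjusted p = 0.0867, adjusted p = 0.797). Asah1, the acid ceramidase, had its KO pools (29.9 and 31.9 FPKM) below its WT pools (35.5 and 34.96 FPKM). Npc2, a cholesterol-binding protein of the lysosomal lumen, was also lower in the KO pools (26.7 and 28.1 FPKM) than in the WT pools (28.8 and 30.2 FPKM). The others overlapped: Smpd1 (acid sphingomyelinase) lay between 25.6 and 28.4 FPKM, Galc (galactosylceramidase) between 7.12 and 8.79 FPKM, and Lipa (lysosomal acid lipase, of cholesteryl esters and triglycerides) between 80.0 and 109 FPKM.

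Among the 6 membrane proteins the median log2 fold change was -0.06, and Scarb2 stood at the upper end of all 43 genes. Scarb2 encodes LIMP-2, a major glycoprotein and sorting receptor of the lysosomal membrane (chr5:92441314-92506833, minus strand). It was at 15.3 and 14.9 FPKM in WT and at 21.9 and 20.7 FPKM in KO, a 1.42-fold higher mean. The pools of each group were close together and the groups were well apart. The log2 fold change was 0.49 (SE 0.11, 95% interval 0.21 to 0.77, limma, unadjusted p = 0.00716, adjusted p = 0.690), and it lay between 0.45 and 0.53 when any 1 pool was left out, with 0.47 (unadjusted p = 0.0316) without WT pool 2.

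Lamp1 was at 476 and 446 FPKM in WT and at 415 and 479 FPKM in KO. The KO pools enclosed the WT pools, with a log2 fold change of -0.05 (SE 0.19, limma, unadjusted p = 0.815, adjusted p = 0.974). Lamp2, which also serves autophagosome fusion and chaperone-mediated autophagy, was at 78.4 and 68.2 FPKM in WT and at 65.3 and 64.6 FPKM in KO. Its KO pools were the lower ones, with a log2 fold change of -0.17 (SE 0.13, limma, unadjusted p = 0.259, adjusted p = 0.839) that was -0.27 without WT pool 2 and -0.071 without WT pool 1. Mcoln1, the lysosomal calcium channel TRPML1, lay between 8.05 and 10.1 FPKM, Npc1, the cholesterol exporter of the membrane, between 3.39 and 4.19 FPKM, and Cln3, a membrane protein lost in juvenile neuronal ceroid lipofuscinosis, between 3.86 and 5.28 FPKM. In all 3 the groups overlapped.

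Tfeb was at 6.18 and 6.79 FPKM in WT and at 6.03 and 6.34 FPKM in KO. The pools overlapped and differed by less than 1.2-fold, and the log2 fold change was -0.06 (SE 0.12, 95% interval -0.37 to 0.25, limma, unadjusted p = 0.622, adjusted p = 0.937). The 14 genes with CACGTG in a promoter window had log2 fold changes from -0.36 to 0.22 with a median of -0.04, and the 24 matched genes without it from -0.67 to 0.49 with a median of -0.12. The 5 genes whose stretches with TCACGTGA are printed above spanned the range of the genes with CACGTG. They ran from Ctsa at -0.36 over Cln3 (-0.10), Mcoln1 (-0.07) and Gla (0.15) to Ctsd at 0.22.

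The genes that peaked in WT pool 2 were compared with the cell markers that also peaked there. WT pool 2 was the highest pool for 18 of the 43 lysosomal genes (41.9%, against 29.1% of all genes tested). The FPKM in WT pool 2 over the mean of the other 3 pools was 2.37 for Ctss, 1.75 for Ctsc and 1.52 for Hexa, the only 3 lysosomal genes above 1.5, and its median over all 43 was 1.03. The same ratio had a median of 2.45 over the 17 macrophage markers tested of 18 listed (Ly6c2 was under the filter), 1.66 over 8 fibroblast markers and 0.868 over 12 proximal tubule markers. WT pool 2 was the highest pool for 15 of these 17 macrophage markers, 7 of 8 fibroblast markers and 0 of 12 proximal tubule markers. No macrophage marker was at 0 in any pool. Their part in the values of Ctss, Ctsc and Hexa was not tested. For Scarb2 the ratio was 0.770, and for Ctsa, Gaa, Tpp1 and Ppt1 it was 1.22, 1.27, 1.17 and 1.12.

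**Figure D4:**
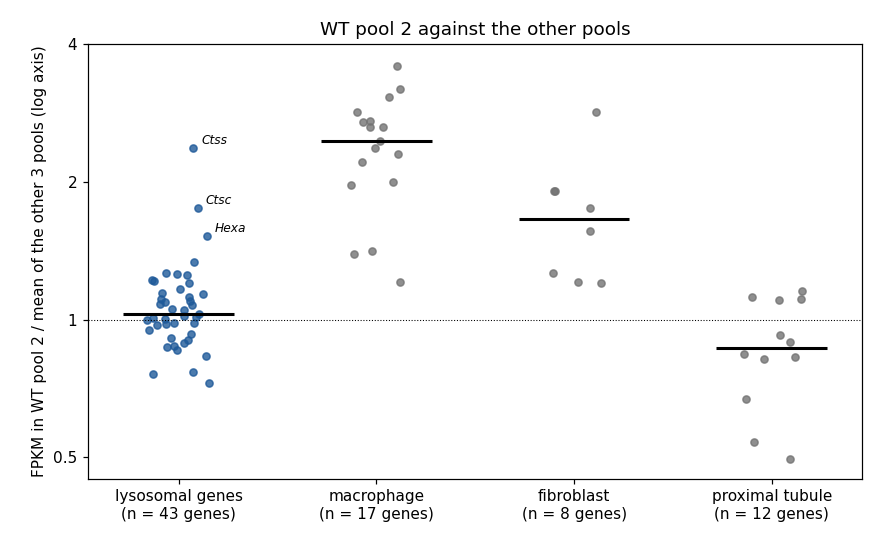
FPKM in WT pool 2 divided by the mean of the other 3 pools (log axis), 1 point per gene, for the 43 lysosomal genes and for the tested markers of macrophages, fibroblasts and proximal tubules, with lines at the medians. The lysosomal genes centre near 1 (median 1.03) with Ctss, Ctsc and Hexa above 1.5, while the macrophage markers have a median of 2.45.

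Other genes of the pathway were read from 5 lists in the same fit, and none passed the adjusted threshold. Of 21 other lysosomal genes, 20 were tested (Mfsd8 was under the filter), with a median log2 fold change of 0.06. Of these 20, 2 had an unadjusted p under 0.05 with the higher level in KO (Grn and Hgsnat, against 3.29% of all genes tested) and 1 with the lower (against 3.03%). Grn, the progranulin that binds prosaposin and cathepsin D, was at 94.9 and 104 FPKM in WT and at 132 and 124 FPKM in KO (log2 fold change 0.37, limma, unadjusted p = 0.0479, adjusted p = 0.785). Hgsnat, an acetyltransferase of heparan sulfate breakdown, was at 21.2, 22.4, 28.6 and 25.9 FPKM in WT1, WT2, KO1 and KO2 (0.31, limma, unadjusted p = 0.0466, adjusted p = 0.785). Grn and Hgsnat were thus higher in both KO pools. The ends of the list were Slc17a5, a sialic acid exporter, at 0.44 (30.0, 23.6, 41.7 and 31.3 FPKM, from 0.23 without KO pool 1 to 0.64 without KO pool 2) and Laptm5, a membrane protein of hematopoietic cells, at -0.72 (7.36, 17.6, 6.99 and 6.47 FPKM). Like Ctss, Laptm5 was high in WT pool 2 only, and its log2 fold change was -0.12 without that pool and -1.33 without WT pool 1.

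The genes that sort or activate hydrolases (7 tested, including both mannose 6-phosphate receptors) had 0 with an unadjusted p under 0.05 by limma and ran from -0.24 (Nagpa, the uncovering enzyme of the mannose 6-phosphate tag) to 0.19 (Igf2r, the cation-independent receptor). With a pool left out, Nagpa ran from -0.40 (without KO pool 1) to -0.070 (without KO pool 2) and Igf2r from 0.051 (without WT pool 2) to 0.33 (without WT pool 1). The cathepsin inhibitors Cst3 and Cstb, cystatins, had log2 fold changes of -0.10 and 0.01. That of Cst3 was -0.18 without KO pool 2, -0.018 without KO pool 1 and -0.27 with quantile normalization. Among 11 TFE factors and nutrient-sensing genes, 1 had an unadjusted p under 0.05, with the lower level in KO (9.09%, against 3.03% of all genes tested, so that a single gene sets this share). This was Rragd, a Rag GTPase and known TFEB target, at 15.02 and 15.06 FPKM in WT and at 11.6 and 12.0 FPKM in KO (-0.34, limma, unadjusted p = 0.0251, adjusted p = 0.785), with both KO pools lower. The highest of that list was Mtor, the kinase that keeps TFEB in the cytoplasm, at 0.34 (26.1, 18.6, 28.6 and 27.3 FPKM). WT pool 2 was its single low pool, and without it the value was 0.097, against 0.58 without WT pool 1. Of 11 autophagy genes, 0 had an unadjusted p under 0.05 by limma, with log2 fold changes from -0.17 (Sqstm1, the autophagy receptor p62) to 0.28 (Atg7, which activates LC3) and a median of 0.13. With a pool left out, Sqstm1 ran from -0.33 (without KO pool 2) to -0.014 (without KO pool 1).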

How the data were processed

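RNA-sequencing of poly-T selected mRNA was read from 1 table of FPKM per gene and pool for 2 WT and 2 Apela Ksp KO pools. The authors deposited FPKM, scaled by gene length and library total, from an analysis run by a company. The submitters' processing notes name HISAT2 2.0.5 and the builds mm10 and GRCm38.p6. The counting tool is not given in the sources used here. FPKM times gene length gave whole reads for 100% of nonzero values, within 0.01 of a read. These reads gave the depth, of 16045724 to 16927742 per pool.

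The KO and WT pools were contrasted on the log2(FPKM + 0.5) scale by limma (version 3.58.1, R 4.3.3; linear fit and moderated two-sided test with a mean-variance trend and no covariate) over the 15414 genes with a mean of at least 0.5 FPKM, with Benjamini-Hochberg adjustment over all of them and the study's threshold of an adjusted p under 0.05. The prior degrees of freedom were 2.62. The fit was run on simulated data to check the size and sign of planted changes. These were of 2-fold or more, larger than the differences of the lysosomal genes, so the run does not give the power for the latter. The labels do not state whether the pools shared mice or days. The p-values set a difference between groups against the spread between pools, which the moderated test draws in part from other genes. With 2 pools a group, precision is set by that spread rather than by depth. Python 3.11.15 with numpy 2.4.6, pandas 2.3.3 and matplotlib 3.10.9 was used for the rest.

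The genes and lists were chosen with earlier results of these data known. Full statistics are given for genes with an unadjusted p under 0.05, the 5 largest absolute log2 fold changes, the 3 highest means, Tfeb, Lamp1, Lamp2 and Apela, and values for the rest. From the pathway lists, genes with an unadjusted p under 0.05 and the extremes are named. Cst3 and Cstb are named as inhibitors, some genes of the lists are not reported here, and statistics of Tpp1, Ppt1, Fuca1, Acp2 and of the adipose, injury and proximal tubule markers named were added after their values were seen. The fit was repeated with a pseudocount of 0.1 or 1, unfiltered or with the mean held to at least 1 FPKM, after quantile normalization, with a constant prior variance, with replicate numbers as a block, with weights from voom on recovered reads, and with each pool left out. Gene coordinates of 41 of 43 genes equal those of GENCODE M21 on GRCm38.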

Additional observations from a re-analysis of the deposited data

How the results depend on the processing

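No gene had an adjusted p under 0.05 in limma under any alternative tried, while the count at an unadjusted p under 0.05 was 974 over all genes, 1720 without WT pool 1 and 687 without WT pool 2. Of the lysosomal genes, 3 had an unadjusted p under 0.05, with 5 under no filter, 1 without the trend and 1 to 5 when a pool was left out (5 without WT pool 1, and Scarb2 alone without any other pool). The 2 pairs of equal replicate numbers share only a number (correlation of deviations -0.00166), and with the number as a block 1 lysosomal gene, Scarb2, had an unadjusted p under 0.05. The count of genes without overlap was 17, and 26 to 34 with a pool left out, where 3 pools overlap less often by construction. The median log2 fold change of the 43 genes was -0.15 with voom weights, which moved the median of all genes to -0.064, and -0.14 to -0.028 with a pool left out. Role medians with quantile normalization were -0.19 (proteases), -0.088 (glycosidases) and -0.089 (membrane proteins), and with voom weights -0.092 (glycosidases), -0.21 (sulfatases), -0.12 (lipid genes) and -0.14 (membrane proteins). With a pool left out they ran from -0.19 to -0.058 (proteases), -0.088 to 0.023 (glycosidases), -0.14 to -0.0023 (lipid genes) and -0.069 to 0.045 (membrane proteins). The log2 fold change took the other sign with quantile normalization for Glb1 (-0.073), Neu1 (-0.095), Arsa (0.0013), Galc (-1.4e-05), Lipa (-0.083), Psap (-0.068), Cstb (-0.14), and with voom weights for Ctsk (-0.0021), Glb1 (-0.055), Neu1 (-0.049), Galc (-0.067), Lipa (-0.036), Cstb (-0.061). Its sign turned on a left-out pool for 22 of the 43 lysosomal genes and for the inhibitor gene Cstb, where it ranged over Ctsk (-0.20 to 0.33), Ctsl (-0.070 to 0.014), Man2b1 (-0.21 to 0.17), Arsb (-0.44 to 0.043), Smpd1 (-0.12 to 0.033), Lipa (-0.19 to 0.26), Npc1 (-0.068 to 0.20), Cstb (-0.075 to 0.10), Ctsb (-0.18 to 0.039), Ctsf (-0.073 to 0.36), Glb1 (-0.14 to 0.18), Gusb (-0.37 to 0.088), Neu1 (-0.15 to 0.20), Arsa (-0.20 to 0.18), Galc (-0.14 to 0.15), Cln3 (-0.27 to 0.065), Tfeb (-0.12 to 0.0015), Lgmn (-0.27 to 0.10), Naglu (-0.13 to 0.10), Lamp1 (-0.15 to 0.055), Mcoln1 (-0.23 to 0.080), Idua (-0.36 to 0.076), Psap (-0.021 to 0.28). No left-out pool turned the sign of Scarb2, Ctsa, Gaa, Ctss, Ctsc or Hexa. The cause of these differences was not tested.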
